A study of Rattus norvegicus with 3 samples.

Results

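The granins are acidic secretory proteins packed into the hormone granules of chromaffin cells, the catecholamine-secreting cells of the adrenal medulla. Chga (chromogranin A), Chgb (chromogranin B), Scg2, Scg3, Scg5 and Vgf were described here, 6 of the 14217 genes that could be named from probe sets annotated to a single gene. A probe set is a group of short oligonucleotides on the array that read the same transcript. All probe sets annotated to these genes alone were taken, and each gene had exactly 1: 1387235_at for Chga, 1368034_at for Chgb, 1368044_at for Scg2, 1368656_at for Scg3, 1367992_at for Scg5 and 1368359_a_at for Vgf. All 6 passed the filter on dim probe sets, which kept 15521 of 31042. Total RNA labelled as rat adrenal medulla had been hybridised to 3 arrays of 1 colour. In the group kept in the cold for 1 day there were 2 arrays, a and b, and in the group kept in the cold for 7 days there was 1 array. All 3 arrays therefore come from rats held in the cold, and no array from rats outside the cold was analysed here. The labels read here name no strain, sex, age or temperature, and do not say whether an array stands for 1 animal or a pool. Since they also do not tie arrays a and b to different animals, the difference within this pair may be technical. With only 3 arrays the precision of each value is low.

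Granins are made as large precursors that bind calcium and aggregate in the Golgi, where they help to form dense-core granules and to hold catecholamines in them. Prohormone convertases then cut them at pairs of basic residues into peptides that are released together with adrenaline and noradrenaline. Chga and Chgb are among the most abundant soluble proteins of the chromaffin granule. Cold raises the sympathetic and adrenal medullary output of catecholamines, and the labels describe a time course of such exposure.

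The promoters of several granin genes hold a cAMP response element, the TGACGTCA letters that proteins of the CREB family bind, and the windows around the annotated starts were searched for it. RefSeq windows of assembly GRCr8, from 250 bases before to 50 bases after the start, were given for 5 of the 6 genes, all but Chga. The full palindrome TGACGTCA was found in the windows of Scg2 and Vgf, against 612 of all 33469 windows of the same length (1.83%). The shorter TGACG, searched on both strands and contained in the full element, was found outside it in the windows of Scg3 and Scg5. Some form of TGACG occurred in 7097 windows (21.2%). The stretches below show the searched letters in capitals with up to 20 bases on each side, on the strand of the gene and ending before the annotated start. The element lay 123 bases before the start in Scg2, 90 in Vgf, 69 in Scg3 and 7 in Scg5, counted from its leftmost printed letter.
Scg2, chr9:88256962-88257009, minus strand: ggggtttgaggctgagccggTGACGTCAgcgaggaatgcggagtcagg
Vgf, chr12:25277083-25277130, minus strand: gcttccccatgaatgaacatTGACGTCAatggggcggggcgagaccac
Scg3, chr8:85322529-85322573, minus strand: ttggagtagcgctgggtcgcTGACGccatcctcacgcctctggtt
Scg5, chr3:121042796-121042822, minus strand: agcttggttgcggagggaggTGACGca
Scg2 and Vgf thus carried the full palindrome, and Scg3 and Scg5 the shorter form. Scg5 held a second short match, on the other strand and 14 bases after the start, which is not shown. Neither form was found in the Chgb window (chr3:140496462-140496761, plus strand), which says only that these letters are not in that window. A match of letters is a description and not a measured binding site.

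The arrays themselves were uneven. The authors' values are linear intensities whose 2% trimmed mean was 2501 on each array, but the median intensity varied: 1583 on array a, 593 on array b and 675 after 7 days. The ratio of 3′ to 5′ probe signal for actin, which grows when RNA is degraded or copied incompletely, was 231 on array a, 6.11 on array b and 8.87 on the 7-day array. For GAPDH the same ratio was 5.02 on array a, 1.79 on array b and 1.87 on the 7-day array, a smaller gap. By their geometric mean the 18 spike-in controls read 11.1 times as bright on array a as on array b. They read 1.29 times as bright on the 7-day array as on array b. Of the kept probe sets, 44.8% differed at least 2-fold between the 1-day arrays a and b, whereas 2.40% differed that far between the 7-day array and array b. Array a therefore stood apart from the other 1-day array, so the granin differences and the medians of gene lists are given with it and without it. The 9 measured chromaffin markers were those that passed the filter, and they differed in brightness. Slc18a1 was the dimmest of them on array a at 1390, where 45.2% of gene probe sets were dimmer. It read 18040 on array b and 13681 on the 7-day array. Th, the enzyme that opens catecholamine synthesis, read 79575, 193597 and 224786 on array a, array b and the 7-day array. Markers of the adrenal cortex, which surrounds the medulla, were bright too. The summed intensity of the 9 measured cortical markers was 1.69%, 0.974% and 1.22% of all gene probe sets, beside 0.616%, 0.540% and 0.573% for the 9 chromaffin markers. No intensity was at 0 on any array, so no marker of another cell type was listed at 0. In RNA from a whole tissue, fewer cells of a type and less RNA per cell cannot be told apart.

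Chgb was the brightest of all 31042 gene probe sets on 1-day array b and at 7 days, and on array a only 1 probe set was brighter. Its intensity was 989259 on array a, 231933 on array b and 287083 on the 7-day array, or 19.92, 17.82 and 18.13 as log2(intensity + 16). Array a was the high array, and the 7-day value lay between the 1-day values. Chgb alone held 0.787%, 0.197% and 0.234% of the summed intensity of all gene probe sets on arrays a, b and 7 days.

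Chga, the precursor of catestatin, pancreastatin and other peptides and a blood marker of chromaffin tumours, ranked 8th, 22nd and 18th from the brightest on the same arrays. It read 628429 on array a, 157202 on array b and 200638 on the 7-day array, which are log2 values of 19.26, 17.26 and 17.61. The order of the arrays was that of Chgb, with array a high and the 7-day array between the 1-day arrays. Together Chga and Chgb held 1.29% of the summed intensity on array a, 0.331% on array b and 0.398% on the 7-day array. All 10 brightest probe sets held 6.20%, 1.74% and 2.10%, so the top of the scale as a whole took a larger share on array a.

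Scg2, the precursor of the neuropeptide secretoneurin, went the other way on array a. Its intensity was 13444 on array a, 82834 on array b and 83993 at 7 days, with log2 values of 13.72, 16.34 and 16.36. Array a was low by far, and array b and the 7-day array were almost equal. In rank Scg2 stood 1226th, 172nd and 192nd, so that 96.1%, 99.4% and 99.4% of gene probe sets were dimmer. The dimmest position of any granin on any array was that of Scg2 on array a.

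The remaining granins differed less between the arrays than Scg2. Scg3, which binds Chga and the cholesterol-rich granule membrane and so helps to sort granins, read 29415, 31652 and 26444 on array a, array b and the 7-day array. Its log2 values were 14.85, 14.95 and 14.69, the smallest spread between the 1-day arrays of any granin (SD 0.07, n = 2), and the 7-day array was the lowest of the 3. In rank it stood 503rd, 704th and 884th.

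Scg5 encodes the chaperone that the convertase Pcsk2 needs to mature. Its probe set read 32119 on array a, 56170 on array b and 47358 on the 7-day array, with log2 values of 14.97, 15.78 and 15.53 and ranks of 451, 305 and 430. The 7-day value lay between the 1-day values, with array a the lowest.

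Vgf, a nerve growth factor inducible precursor that is cut into several neuroendocrine peptides, had the same order of arrays as Scg5. It read 24848, 42325 and 30629, or 14.60, 15.37 and 14.90 on the log2 scale, and ranked 615th, 468th and 747th. Scg2, Scg3, Scg5 and Vgf together held 0.0794% of the summed intensity on array a, 0.181% on array b and 0.154% on the 7-day array. Their summed share was thus lower on array a than on the others, where that of Chga and Chgb was higher.

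**Figure D1:**
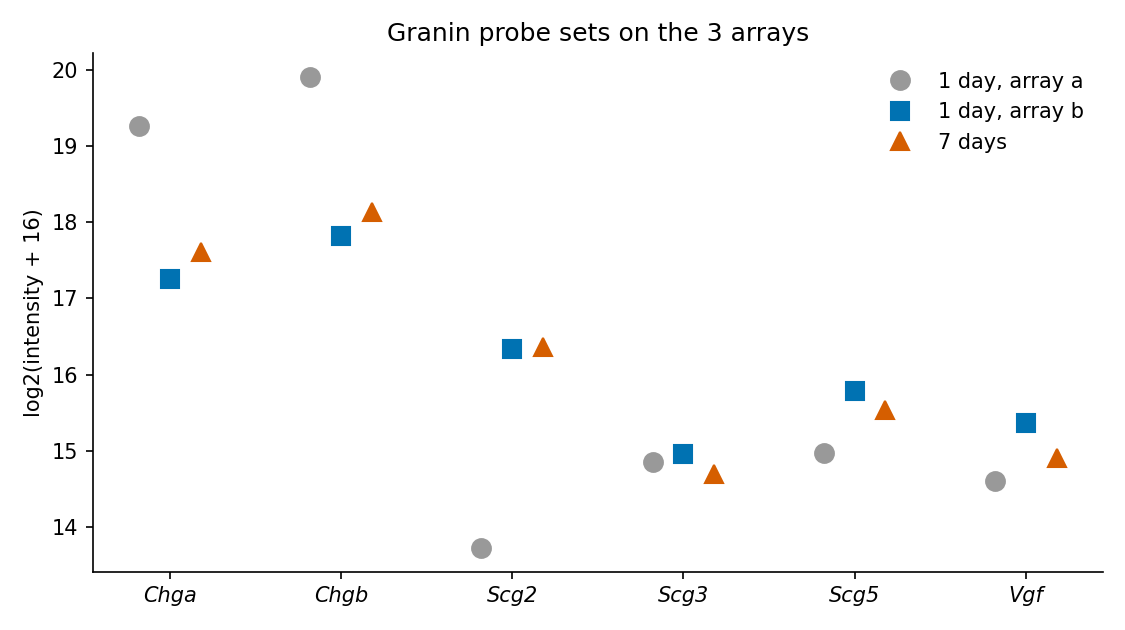
Granin probe sets by array. The y axis is log2(intensity + 16) and each point is 1 array: circles for 1-day array a, squares for 1-day array b, triangles for the 7-day array. On array a Chga (19.26) and Chgb (19.92) sit far above the other arrays and Scg2 (13.72) far below them, while the points of Scg3 lie between 14.69 and 14.95.

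The brightness of a probe set also depends on its oligonucleotides, so the ranks describe the arrays and do not order the transcripts by abundance. With that limit, all 6 granins lay in the bright tail of each array, and the lowest of the 18 positions still had 96.1% of gene probe sets below it. By brightness, the order was Chgb, Chga, Scg2, Scg5, Vgf and Scg3 on array b and at 7 days. On array a it was Chgb, Chga, Scg5, Scg3, Vgf and Scg2. Neighbours in these orders were not tested against each other, because their probes differ.

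**Figure D2:**
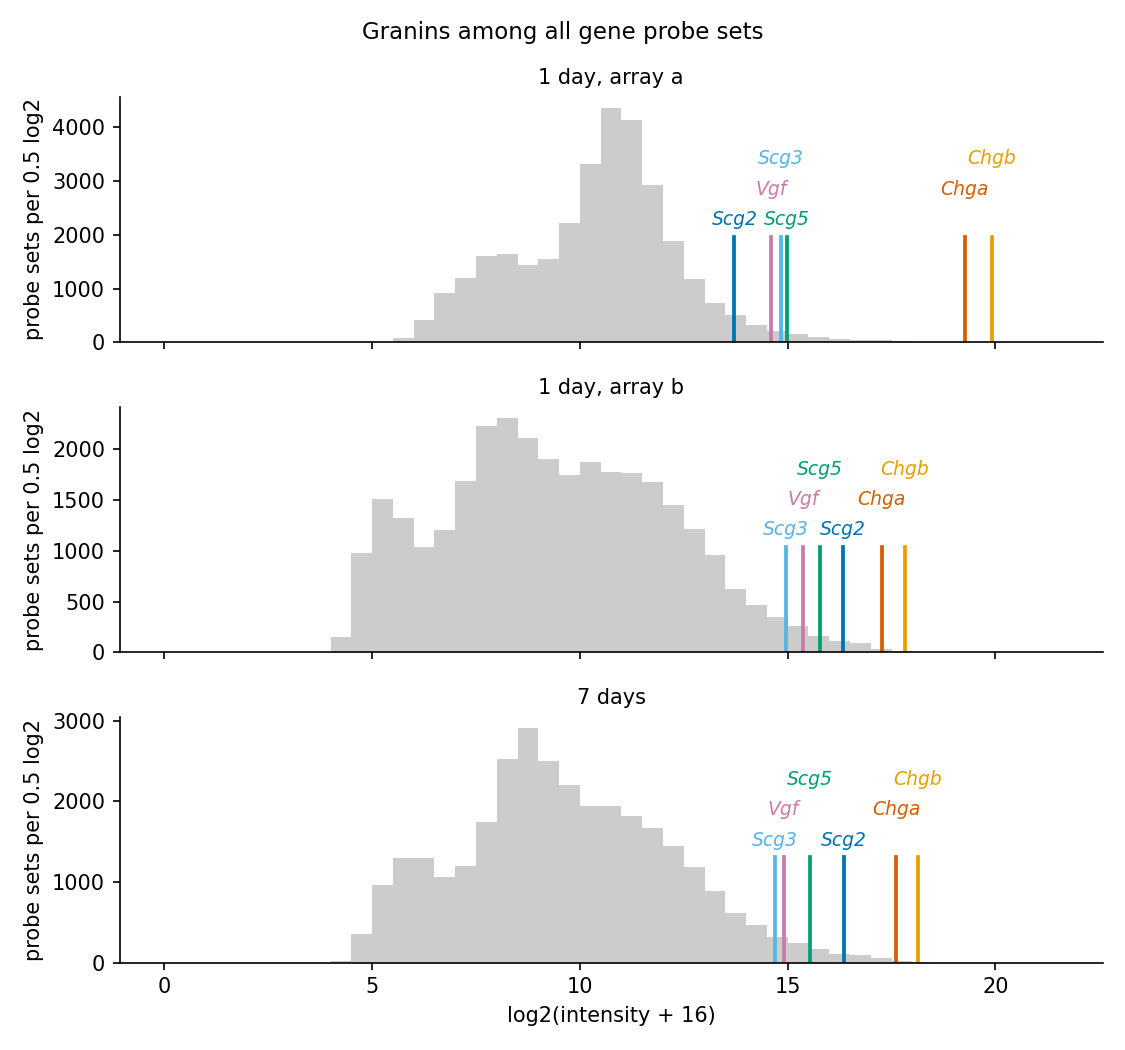
Where the granins lie among all gene probe sets. Each panel is 1 array, the x axis is log2(intensity + 16), grey bars count probe sets in bins of 0.5 log2, and coloured lines mark the granins. All 6 lines lie in the right tail on every array, and on array a Chga and Chgb stand apart from the other 4.

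Before any comparison with 7 days, the difference between the 1-day arrays was read for each granin. Array a exceeded array b by 2.0 (log2) in Chga and by 2.09 in Chgb, which are 4.0-fold and 4.27-fold. In Scg2 array a was 6.16-fold lower, a log2 difference of -2.62. Scg5 and Vgf were 1.75-fold and 1.70-fold lower on array a (-0.81 and -0.77), and Scg3 was 1.08-fold lower (-0.11). Granins thus differed by at least 2-fold in both directions within the 1-day group: 2 of 6 higher on array a, where 24.0% of kept probe sets were, and 1 of 6 lower, where 20.7% were. Their differences spanned 4.71 (log2) and had a median of -0.44, beside a median of 0.07 and an SD of 1.43 over all kept probe sets. Differences as large as those of Chga, Chgb and Scg2 were found in 14.9%, 13.3% and 7.09% of kept probe sets.

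The comparison that the labels imply, 7 days against 1 day, was tested with limma, whose spread came from the 1-day pair alone because 7 days had 1 array. No granin passed, and no kept probe set of the array did (0 of 15521, 0.00%, at a Benjamini-Hochberg adjusted p of 0.05, with 70 at an unadjusted p under 0.05). Against the mean of both 1-day arrays, the 7-day array differed on the log2 scale by -0.65 ± 1.18 (SE) for Chga, -0.74 ± 1.22 for Chgb and 1.33 ± 1.05 for Scg2. For Scg3 the difference was -0.21 ± 1.02, for Scg5 0.16 ± 1.05 and for Vgf -0.08 ± 1.03. The unadjusted limma p was lowest for Scg2 at 0.205 and lay between 0.544 and 0.936 for the others, and the adjusted p was 1.00 for each of the 6. Each SE is the spread that limma fitted at that intensity, and all 6 exceed 1 on the log2 scale, so a 2-fold difference was not detectable with these arrays.

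Read array by array, the 7-day value of 4 granins lay between the values of the 1-day arrays. Only Scg2 lay above both, as did 22.4% of kept probe sets, and only Scg3 lay below both, as did 25.3%. Scg2 exceeded the nearer 1-day array by 0.02 (log2), and Scg3 differed from the nearer by -0.15. Neither was at least 2-fold beyond both 1-day arrays, a distance reached by 0.380% of kept probe sets. These positions hold for the values as deposited. With quantile normalisation Scg2 lay between the 1-day arrays, and Vgf lay below both (-0.54 from array b, -0.24 from array a). With median centring Scg3 lay between them (-0.44 from array b, 1.06 from array a).

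Without array a, the 7-day array could be compared with 1-day array b alone, 1 array against 1, with no test. Here 3 granins read higher at 7 days and 3 read lower, with a median of -0.11 (log2) beside 0.00 over the kept probe sets. Chga was 1.28-fold higher (0.35), Chgb 1.24-fold higher (0.31) and Scg2 1.01-fold higher (0.02). Vgf was 1.38-fold lower (-0.47), Scg3 1.20-fold lower (-0.26) and Scg5 1.19-fold lower (-0.25). No granin differed by 2-fold, against 2.40% of kept probe sets. The SD of this difference over all kept probe sets was 0.39, and 17.3% of them lay at least as far from 0 as Vgf, 27.7% as Chga and 94.4% as Scg2. These shares cover all kept probe sets, most of which are dimmer than the granins. Shares among probe sets of like brightness were not computed.

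**Figure D3:**
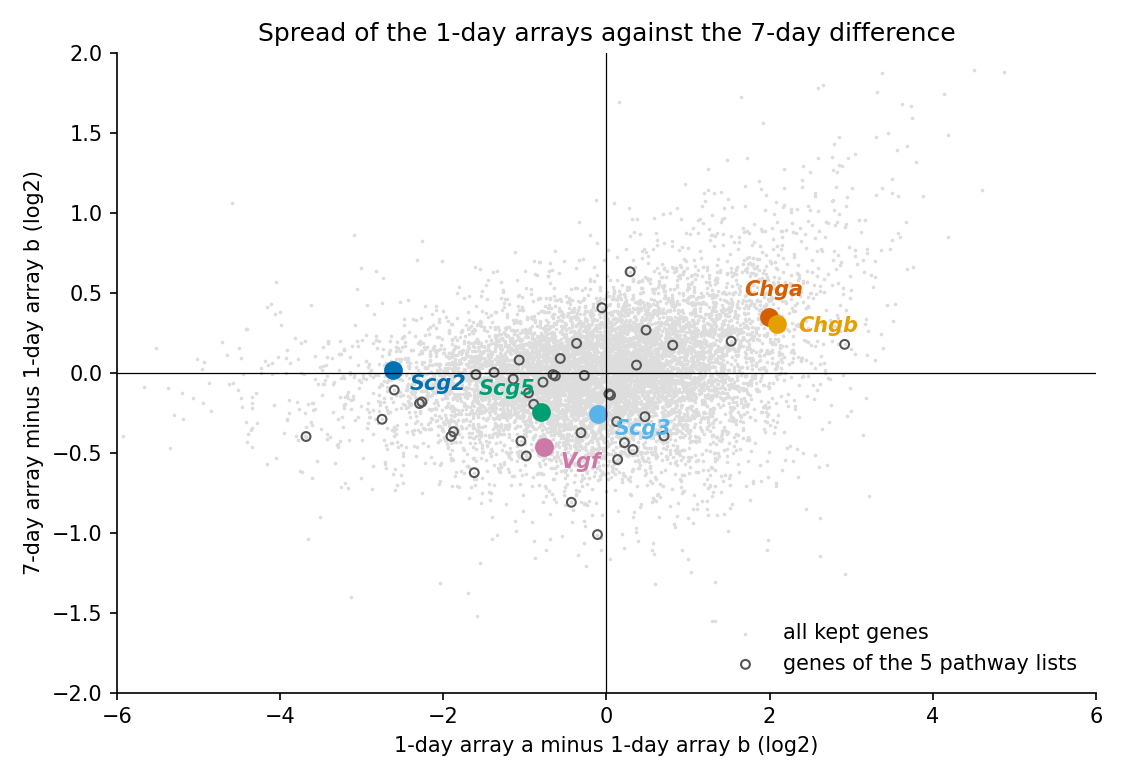
Spread within 1 day against the difference at 7 days. The x axis is 1-day array a minus array b and the y axis the 7-day array minus array b, both in log2. Grey dots are the kept genes (7 lie outside the plotted range), open circles the genes of 5 pathway lists and coloured dots the granins, which span 4.71 along x and 0.82 along y.

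The sign of these differences was followed over 6 settings: the values as deposited, a pseudocount of 1, a pseudocount of 64, quantile normalisation, median centring and removal of a smooth intensity trend. The granins are so bright that either pseudocount hardly moved them, so the first 3 settings count almost as 1. Against array b, Chga was higher at 7 days under all 6 (0.06 to 0.35). Chgb was higher under 5 and equal under quantile normalisation, which sets the brightest probe set of both arrays to the same value. Scg3 (-0.44 to -0.26), Scg5 (-0.43 to -0.25) and Vgf (-0.65 to -0.47) were lower under all 6. Scg2 was at 0.02 as deposited and with either pseudocount. It was at -0.15 with quantile normalisation, -0.16 with median centring and -0.11 with the trend removed. Centring on the median moved all kept probe sets by -0.18 in this comparison, and Scg2 with them.

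Within the 1-day group Scg2 was lower on array a under all 6 settings (-4.01 to -2.21). Chga was higher on array a under all 6, but its difference shrank to 0.52 with quantile normalisation, and that of Chgb turned to -0.12. Scg3 was lower as deposited, with either pseudocount and with median centring (-1.50). It was higher with quantile normalisation (0.39) and with the trend removed (0.33). Centring on the median took the median of this difference over the kept probe sets from 0.07 to -1.32.

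**Figure D4:**
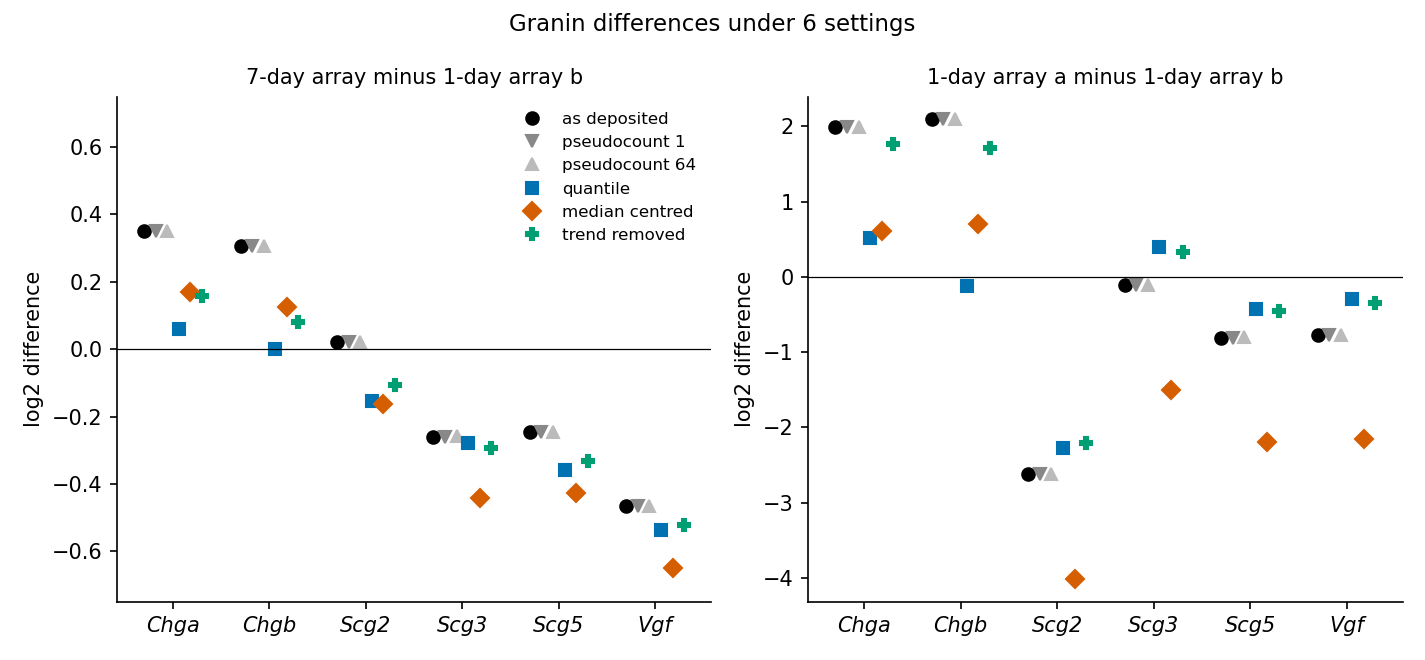
Granin differences under 6 settings. The left panel shows the 7-day array minus 1-day array b and the right panel 1-day array a minus array b, on y axes in log2 that differ in range. Each symbol is 1 setting, and the lowest points of the right panel are Scg2, down to -4.01.

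The other genes of the granule were taken from 5 lists that hold 47 genes, of which 41 had a probe set above the filter. Against array b, 30 of these 41 read lower at 7 days and 11 higher, with a median of -0.14 (log2). Over all 9292 measured genes 4775 read lower and 4517 higher, with a median of -0.01. With array a included the direction turned: against the mean of both 1-day arrays 25 of the 41 read higher and 16 lower (median 0.19), beside 4816 higher and 4476 lower of all genes (0.03). Against array a alone the 41 had the same counts and a median of 0.55. Under quantile normalisation 33 of 41 read lower, with the trend removed 34, and with median centring 36, where 75.5% of all genes read lower too. None of the 41 passed limma. Of the 41, 6 lay above both 1-day arrays and 11 below both (14.6% and 26.8%), beside 24.8% and 24.9% of all genes.

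The enzymes that cut and finish granin peptides had 7 measured members, of which 5 read lower than on array b and 2 higher, with a median of -0.13. Against the mean of both 1-day arrays 4 read higher and 3 lower (0.10). Pcsk2, the convertase that Scg5 escorts, read 3050 on array a, 6326 on array b and 4702 at 7 days, and like Scg5 its 7-day value lay between the others. Pcsk1n, an inhibitor of the convertase Pcsk1, read 26763, 39636 and 42182. Cpe, the carboxypeptidase that trims basic residues, read 147575, 114294 and 118168. Its difference from array b was 0.05 and turned to -0.13 with median centring, -0.24 with quantile normalisation and -0.11 with the trend removed. Pam, which amidates the peptides, read 9935, 48705 and 42629 and so shared the low value of Scg2 on array a (-2.29 from array b).

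Of the 10 peptides stored beside the granins, 9 read lower than on array b and 1 higher, with a median of -0.32. With array a included, 7 read higher and 3 lower than the 1-day mean (0.18). Penk, the enkephalin precursor, stood at 14642 on array a, 45064 on array b and 29224 on the 7-day array, a log2 difference of -0.62 from array b. Npy read 66780, 147468 and 143523, Gal (galanin) 1680, 3130 and 2729, and Adm (adrenomedullin) 1596, 6025 and 4571. All 4 were lowest on array a and lay between the 1-day arrays at 7 days, the order also seen in Scg5 and Vgf. Of all 9292 measured genes, 24.8% lay above both 1-day arrays and 24.9% below both, so a value in between is frequent. Array a was lower than array b in 4805 of them, and the share with the full order was not computed.

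Among the 8 genes of the granule membrane and of amine loading, 6 read lower than on array b and 2 higher, with a median of -0.10. Against the 1-day mean the sign turned as well, with 5 higher and 3 lower (0.31). Slc18a1, a monoamine transporter that loads the granule, read 1390 on array a, 18040 on array b and 13681 at 7 days. Slc18a2, a related monoamine transporter, read 30227, 24130 and 17297 and was below both 1-day arrays. Dbh, which turns dopamine into noradrenaline inside the granule, read 543430, 188289 and 215877, high on array a as Chga and Chgb were (1.53 over array b as deposited, 1.30 with the trend removed, 0.14 with median centring and equal with quantile normalisation). The Dbh difference of 0.20 between 7 days and array b was 0.02 with median centring, -0.12 with quantile normalisation and -0.01 with the trend removed. Cyb561, the membrane cytochrome that supplies electrons to Dbh, read 59991, 94508 and 93765.

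In the machinery of granule formation and release, 12 of 15 genes on the arrays were measured, and 9 of them read lower than on array b and 3 higher, with a median of -0.13. Set against the mean of both 1-day arrays, 7 read higher and 5 lower (0.34). The priming factors Cadps and Cadps2 read 2944, 2524 and 1860, and 232, 1490 and 1382. The calcium sensor Syt1 read 2961, 377 and 429, and Syt4 read 38425, 27688 and 22893. Cadps and Syt4 were below both 1-day arrays, as Scg3 was. Syt1 was 0.18 higher than on array b as deposited but lower with quantile normalisation (-0.14) and the trend removed (-0.17), and close to 0 with median centring.

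Factors known to act at granin promoters had 4 measured members, of which 3 read higher than on array b and 1 lower, with a median of 0.13 that became -0.06 with median centring, when 1 read higher and 3 lower. Relative to the 1-day mean 2 read higher and 2 lower (-0.10). Creb1, which binds the cAMP response element, read 1589, 3353 and 3544. Crem, which binds the same element and has repressor forms, read 168397, 120262 and 144744. Egr1 read 74760, 45833 and 34849, below both 1-day arrays, and Sp1 read 19926, 11338 and 12780. The sign of Creb1 (0.08) and Sp1 (0.17) against array b turned with median centring, to -0.10 and -0.01. Rest, the repressor of neuronal and neuroendocrine genes, was below the filter at 552, 232 and 140.

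Markers of other cells differed between the arrays as well. All 9 measured markers of the adrenal cortex read higher at 7 days than on array b under each of the 4 scalings. Their median was 0.38 as deposited, 0.18 with quantile normalisation, 0.19 with median centring and 0.18 with the trend removed. Over all 9292 measured genes, 4517 read higher than on array b and 4775 lower as deposited. Of the cortical markers 5 of 9 lay above both 1-day arrays, beside 24.8% of all genes. Against the 1-day mean 5 cortical markers read higher and 4 lower (0.36). Markers of macrophages and lymphocytes read lower than on array b in 8 of 9 genes (median -0.46), but in 6 of 9 with quantile normalisation or the trend removed, and those of fibroblasts in 4 of 4 (-0.41). Fibroblast markers were also low on array a, by a median of -2.49 from array b. Endothelial markers had a median of 0.15 and Schwann and sustentacular markers 0.09, over 6 and 4 genes, which became -0.03 and -0.09 with median centring. The 9 chromaffin markers had a median of -0.20, with 4 higher and 5 lower. With quantile normalisation 1 was higher and 7 lower (-0.15), and against the 1-day mean as deposited 5 were higher and 4 lower (0.30). For the other lists the median against the 1-day mean was -0.03 for macrophages and lymphocytes, 0.99 for fibroblasts, 0.16 for endothelium and 0.23 for Schwann and sustentacular cells. In summed intensity, macrophage and lymphocyte markers held between 0.0473% and 0.0581% on the 3 arrays, fibroblast markers between 0.0222% and 0.117%. The part of these cells in the granin values was not tested.

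The genes whose pattern was most like each granin were found among the 9291 other measured genes by the distance between their differences of array a and of the 7-day array from array b, over 3 arrays. For Chga these were Dcaf4, Fbxo28 and Naa40, for Chgb Fsd1, Nxpe4 and Sp100, and for Scg2 Hars1, Ywhae and St13. For Scg3 they were Hspa13, Lgals3bp and Prkcsh, for Scg5 Vip, Nsfl1c and Itpr1, and for Vgf Pak3, Krit1 and Wdr75. Between 16 genes, for Chgb, and 86, for Scg3, lay within 0.1 (log2) of a granin. Chga and Chgb lay 0.10 apart, yet 21 genes were nearer to Chga than Chgb was. Scg5 and Vgf were 0.22 apart, with 420 genes nearer to Scg5 than Vgf. Scg2 lay 4.63 from Chga and 4.72 from Chgb. Without array a a single difference would remain, so no such distance was computed. With 3 arrays, of which array a sets most of the distance, such nearness describes these arrays only.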

How the data were processed

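The authors deposited a linear intensity for each of 31099 probe sets on each array, already summarised and scaled. That the arrays share a trimmed mean is read from the values. The software is not given in the sources used here. Values were kept as scaled and turned into log2(intensity + 16), which compresses differences at low intensity. Gene comparisons leave out 57 control probe sets. Probe sets with a mean log2 value of at least 9.60 (an intensity of 759, the median of all) were kept. Names came from the platform annotation (20826 probe sets with 1 symbol, 436 with several, 9780 with none), with 20758 updated by Entrez identifier through the RefSeq table of GRCr8, used for names only. A gene of the lists was represented by its kept probe set with the highest mean. All columns of values were used.

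The test was limma 3.58.1 in R 4.3.3 (lmFit, eBayes with trend, two-sided) on all 3 arrays and all kept probe sets. It had 1 residual degree of freedom and an infinite prior, and assumes that the 7-day array varies like the 1-day arrays. The code was also run on simulated data in which all 3 arrays had the same spread. That spread was taken from the 7-day array and array b, whose log2 differences had an SD of 0.39. Arrays a and b differed with an SD of 1.43, so the simulation does not describe what the real fit could detect. Each array's group and letter come from its title, where the words Multiple Organs, taken here as a project name, precede the tissue. The granins and the gene lists were chosen with earlier results of these data known. Named were all granins, the first 4 measured genes of each pathway list in list order, and the 3 nearest genes of each granin, by the Euclidean distance of the log2 differences. Alternatives were other pseudocounts, quantile normalisation, median centring, trend removal, other filters, eBayes without a trend and robust, ranks among other pools, and leaving out each 1-day array. The counts of list genes under other scalings were added after seeing the data.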

Additional observations from a re-analysis of the deposited data

How the results depend on the processing

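limma called 0 probe sets under each alternative run (other pseudocounts, quantile normalisation, median centring, all probe sets kept, only those above the 75th percentile kept, eBayes without trend, robust eBayes), with between 1 and 70 at an unadjusted p under 0.05. Leaving out 1-day array a or array b moved the 7-day difference from 0.35 to -1.65 in Chga, from 0.31 to -1.78 in Chgb, from -0.25 to 0.56 in Scg5 and from -0.47 to 0.30 in Vgf. That of Scg2 ran from 0.02 to 2.64 and that of Scg3 from -0.26 to -0.15. Against the mean of the 1-day arrays, quantile normalisation gave 0.058 for Chgb and -0.15 for Scg5, median centring 0.31 for Scg3 and 0.43 for Vgf, and trend removal -0.18 for Scg5. Against array b, Scg2 was at -0.15, -0.16 and -0.11 under these settings, and Scg3 at -0.44 with median centring. Array a minus array b was 0.52 for Chga, -0.12 for Chgb and 0.39 for Scg3 with quantile normalisation. With median centring it was -1.50 for Scg3, -2.20 for Scg5 and -2.16 for Vgf, and with trend removal 0.33 for Scg3. The cause was not tested, except that centring shifts all probe sets alike. The share of dimmer probe sets became 99.98% for Chgb on array a with controls counted, and among probe sets with 1 symbol 97.3% and 96.5% for Scg3 on array b and the 7-day array and 97.1% for Vgf at 7 days. The count of promoter factors lower than on array b went from 1 to 3 with median centring. Averaging several probe sets of a granin was not run because each has 1, and without array a no test could be had. No paired analysis was possible because the labels do not match either 1-day array to the 7-day array.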
